A study of Rattus norvegicus with 9 samples.

Results

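Rat renal artery endothelial cells in culture, given calycosin and tanshinone IIA together, were compared with cells of the group labelled Model. The comparison used 6 of the 9 libraries of the study, 3 treated and 3 Model libraries, each named below by its group and replicate number. Genes and long non-coding RNAs (lncRNAs) were deposited as separate count tables and were tested separately. A feature entered the test when it had 10 or more counts in at least 3 of the 6 libraries, which left 12774 of 32883 genes and 8173 of 16814 lncRNA transcripts. The 3 remaining libraries, labelled Normal, took no part in the test and are given as levels beside it. All groups are the same kind of cell, grown in serum-supplemented medium. The labels name the conditions only as Normal, Model and the pair of compounds. The study's title ties the disease condition to angiotensin II, but the labels do not state it for single groups, nor whether the treated cells also received it. Doses, exposure times and the solvent are not stated. Nor is it stated that libraries sharing a label are separate cultures, so a p-value here refers to library-to-library spread only, and that spread may be technical.

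Endothelial cells line the vessel wall and set its tone, its permeability and its adhesiveness to blood cells. Angiotensin II, the effector peptide of the renin-angiotensin system, raises vascular tone and is widely used to make cultured endothelial cells dysfunctional. Calycosin is an isoflavone of astragalus root, and tanshinone IIA is a diterpene quinone of danshen root. lncRNAs are transcripts without a known protein product, and 1 locus often yields several of them that share exons, so that a read can fit more than 1 transcript.

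Library totals in the gene table were 13249900 to 17179300 counts in Model and 7983580 to 18257000 in the treated group, rounded to 6 digits. In the lncRNA table they were 1120840 to 1454190 and 710678 to 1583740. Treated 1 was the deepest of the 6 libraries in both tables, and treated 2 and treated 3 were the shallowest. At these depths 3 counts equal a level of 0.164 to 0.373 CPM (counts scaled to a common library size) for a gene and 1.94 to 4.21 CPM for a lncRNA in the 6 libraries compared. The common biological coefficient of variation was 8.48% for genes and 32.9% for lncRNAs. Defining markers of endothelial cells, and of smooth muscle cells, fibroblasts, leukocytes and epithelial cells, were not checked, because the gene table gives Ensembl identifiers without symbols and 0 of 32883 could be matched to the reference gene table. For the same reason at most 2 genes in each direction are given by identifier.

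Gene levels in the treated group lay close to those in Model. Of 12774 genes tested, 118 were called at an adjusted p below 0.05 (0.924%), 79 of them higher (0.618%) and 39 lower (0.305%) in the treated group (edgeR quasi-likelihood test, Benjamini-Hochberg adjustment). The median fold was 1.38 among the genes called higher and 1.27 among those called lower, against 1.07 over all genes tested in either direction. A change of at least 1.5-fold was seen in 31 called genes, 24 higher and 7 lower, a fold that 2.15% of all genes tested reached. Of the called genes, 6 changed at least 2-fold, all of them higher in the treated group, by 2.21-fold to 3.84-fold. Over all genes tested 0.36% differed at least 2-fold and 0.047% at least 4-fold. Those 6 were of low to moderate abundance, with means of 0.687 to 18.3 CPM in Model and 2.43 to 40.8 CPM in the treated group. The largest fall among called genes was 1.89-fold. All 118 called genes had treated libraries entirely above or entirely below the Model libraries, and so did 18.8% of all genes tested, 7.91% with treated higher and 10.9% with treated lower.

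**Figure D1:**
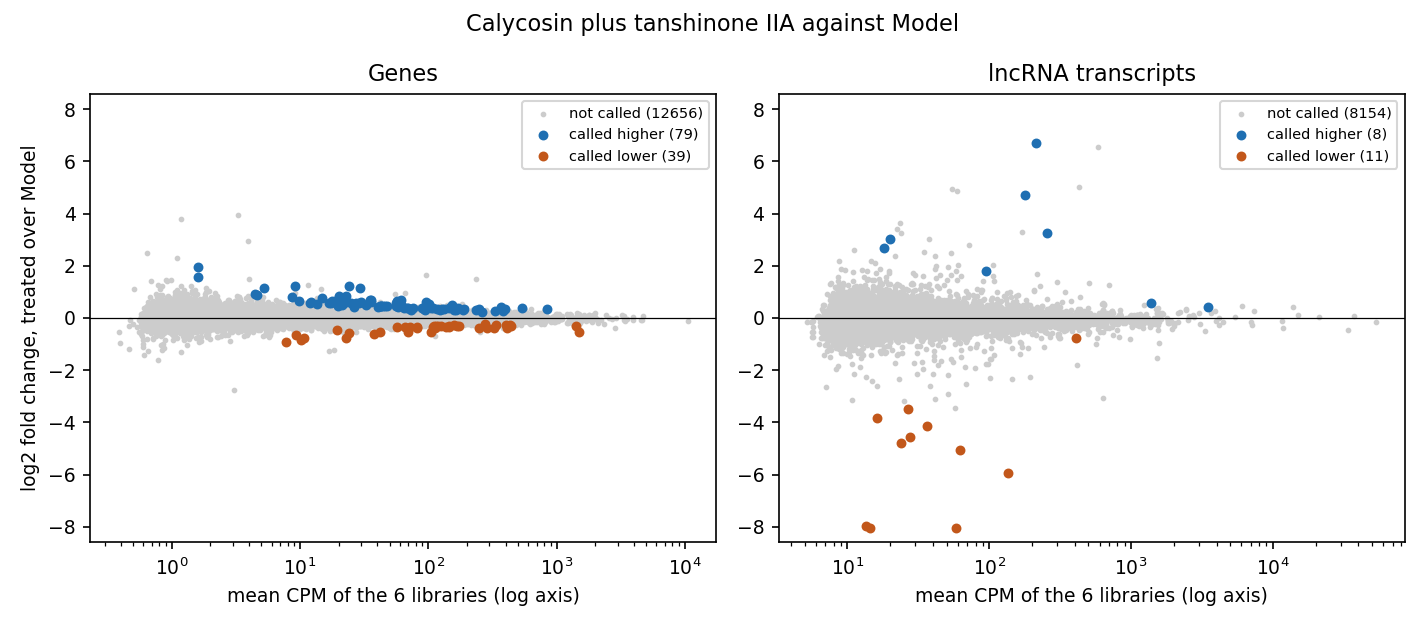
Mean CPM of the 6 libraries (x, log axis) against the fitted log2 fold change of treated over Model (y) for 12774 genes (left) and 8173 lncRNA transcripts (right), with called features in colour. Called genes hug the zero line, with 118 calls of at most 3.84-fold, while 15 of the 19 called lncRNAs differ at least 4-fold; the 3 points near -8 rest on 0 or 1 count in the treated group, so their position depends on the prior count of the fit.

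The genes called lower were the more abundant ones. Their median level in Model was 129.4 CPM, against 40.1 CPM for the genes called higher and 29.2 CPM for all genes tested. With the tested genes divided by mean level into 4 groups of equal size, from the lowest to the highest, 7, 27, 30 and 54 genes were called, which is 0.219%, 0.846%, 0.94% and 1.69% of each group. Higher and lower calls numbered 28 and 26 in the most abundant group, and 6 and 1 in the least abundant. The size of a change that was called moved with abundance as well. Its median was 1.89-fold in the least abundant group and 1.26-fold in the most abundant, and the median standard error of the log2 fold change fell from 0.23 to 0.07 between these groups. Gene length, recovered from the deposited FPKM values, ran the same way, with 21, 39 and 58 calls (0.493%, 0.916% and 1.36%) in the short, middle and long classes of 4258 genes each. Both directions took part in this: the long class held 37 higher and 21 lower calls and the short class 14 and 7. The median log2 fold change was 0.00, 0.00 and 0.02 in these classes.

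The gene with the smallest p, ENSRNOG00000019500, had 16, 18.3 and 20.7 CPM in the Model libraries and 41.9, 43.3 and 37.2 CPM in the treated libraries. No treated library came near the Model range, and the gene rose 2.23-fold (log2 fold change 1.16 ± 0.10 SE, edgeR adjusted p = 0.000881). In Normal it had 18.1, 16.3 and 16.8 CPM, within the range of Model. ENSRNOG00000003254, a scarcer gene, had 5.6, 6.2 and 4.6 CPM in Model and 13.4, 12.1 and 12.6 CPM in the treated libraries. It rose 2.34-fold (log2 fold change 1.23 ± 0.14 SE, edgeR adjusted p = 0.00313), and its Normal libraries, at 4.8, 4.7 and 4.5 CPM, sat with the Model libraries.

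Of the genes that fell, ENSRNOG00000003357 was the most firmly called. It had 1876, 1738 and 1705 CPM in Model and 1180, 1235 and 1271 CPM in the treated libraries, a 1.44-fold fall (log2 fold change -0.52 ± 0.06 SE, edgeR adjusted p = 0.00239). The spread over 3 libraries of a group, 90.9 CPM in Model and 45.4 CPM in the treated group (SD), left the lowest Model library well above the highest treated one, and Normal stood at 1854 ± 121 CPM (SD, n = 3). ENSRNOG00000052119, with a recovered length of only 141 bases, had 128.1, 122.3 and 123.9 CPM in Model and 91.9, 78.5 and 85.7 CPM in the treated libraries. Its 1.45-fold fall (log2 fold change -0.54 ± 0.07 SE, edgeR adjusted p = 0.00448) missed the threshold without Model 3 (adjusted p = 0.0555) and without treated 2 (adjusted p = 0.0673). The Normal libraries of this gene spread more widely than either compared group, from 114.2 to 152.8 CPM. The other 3 named genes stayed called in every alternative fit in which they were tested, but ENSRNOG00000003357 and ENSRNOG00000052119 are both below a minimum fold of 1.5.

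**Figure D2:**
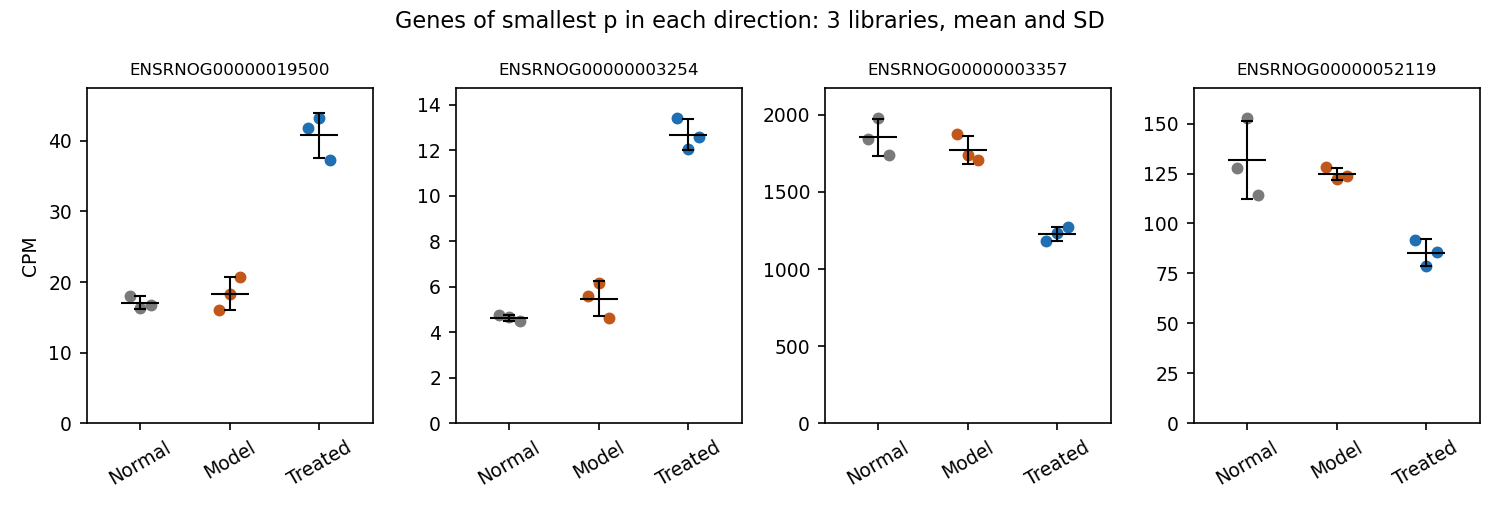
CPM (y, from 0) of the 2 genes of smallest p in each direction, in Normal, Model and treated libraries (x). Points are libraries, and the bars are the mean and SD over 3 libraries. Treated libraries do not overlap Model libraries in any panel, and ENSRNOG00000019500 stands at 40.8 CPM in the treated group against 18.3 CPM in Model.

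How many genes were called changed strongly when a single library was left out. Each such fit also had 1 library fewer in 1 group, and the part of this in the changes was not tested. Without Model 2 the count rose to 995 genes, 660 higher and 335 lower, and all 118 calls were among them. It fell to 38 without Model 1 and to 10 without Model 3. Leaving out a treated library gave 44 genes without treated 1, 8 without treated 2 and 50 without treated 3. Without treated 2, 6 of the 118 calls remained. Higher calls outnumbered lower ones in each of these fits. With all 6 libraries, 1693 genes (13.3% of those tested) had an unadjusted p under 0.05.

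**Figure D3:**
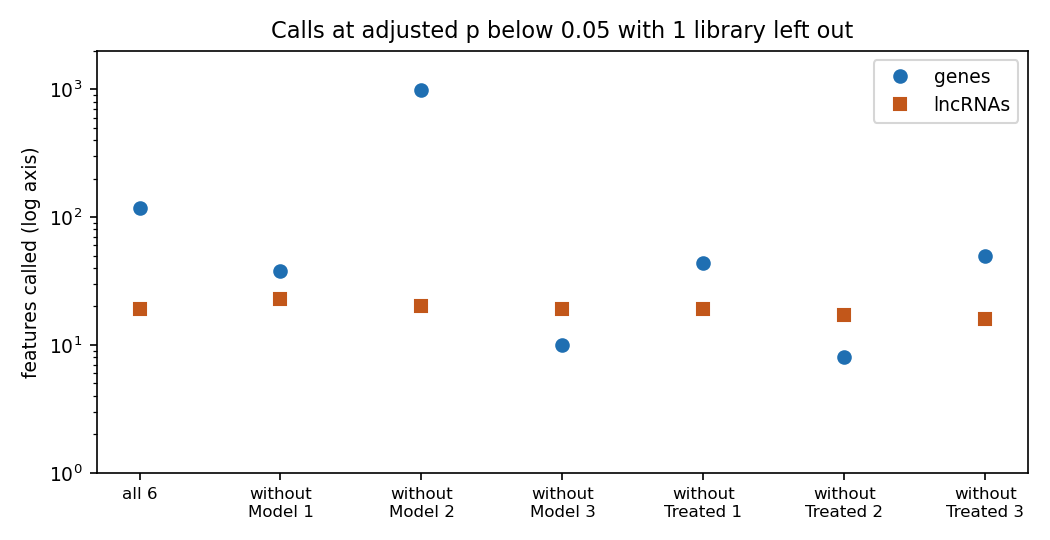
Number of genes (circles) and lncRNAs (squares) called at an adjusted p below 0.05 (y, log axis) with all 6 libraries and with each library left out in turn (x). Gene calls range from 8 to 995, while lncRNA calls stay between 16 and 23.

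The lncRNA table gave fewer calls, and the called differences were much larger. The median standard error of the log2 fold change was 0.29 over all lncRNAs tested and 0.10 over all genes tested, so a small change was harder to call among lncRNAs. Calls were made for 19 of 8173 lncRNAs (0.232%), of which 8 were higher (0.0979%) and 11 lower (0.135%) in the treated group. An unadjusted p below 0.05 was found for 473 (5.79%; edgeR quasi-likelihood test). The median fold of the 19 was 17.8, against 1.15 over all lncRNAs tested. Of the 19, 15 differed at least 4-fold, 5 higher and 10 lower, while 0.685% of all lncRNAs tested had such a fold and 3.45% differed at least 2-fold. The groups did not overlap for any of the 19, which was so for 12.8% of the lncRNAs tested, 6.01% with treated higher and 6.8% with treated lower. By mean level, 4 groups of equal size held 2, 6, 3 and 8 of the calls from the lowest to the highest (0.0978%, 0.294%, 0.147% and 0.392%). In 13 of these 15 every library of the lower group had at most 10 counts. The count filter admitted such transcripts through their higher group alone, so low counts in the other group are partly built in. The higher group was not always well counted either, as NONRATT008934.2 had 80, 12 and 28 counts in the treated libraries. The count of 19 was 16 to 23 when each library was left out in turn, but membership changed: 11 to 14 of the 19 stayed called. It fell to 11 when the Normal libraries entered the fit, and to 8, of which 6 are among the 19, for lncRNAs with 10 counts in all 6 libraries, a filter chosen after the data were seen that removes the 13 with low counts in 1 group. By kind of transcript, NONCODE catalogue transcripts (NONRATT) held 14 calls among 6604 tested (0.212%), and assembled transcripts (MSTRG) held 5 among 1311 (0.381%). Of 258 Ensembl transcripts tested 0 were called (edgeR, smallest adjusted p = 0.477), 10 had an unadjusted p below 0.05, and DESeq2 called 0. At the share of 0.232% over all lncRNAs fewer than 1 call would fall on a class of that size.

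Several transcripts were near the floor in every treated library and well counted in every Model library. NONRATT019335.2 had 232, 438 and 383 counts in the Model libraries and 4, 5 and 3 counts in the treated ones. That is 265.8 ± 42.3 CPM against 4.53 ± 2.26 CPM (SD, n = 3), a 61.9-fold fall (log2 fold change -5.95 ± 0.31 SE, edgeR adjusted p = 0.000141). In Normal it had 316, 244 and 329 counts, at the level of Model. NONRATT000843.2 showed the same layout at lower abundance, with 66, 69 and 65 counts in Model and 1, 3 and 2 in the treated libraries (log2 fold change -4.57 ± 0.45 SE, edgeR adjusted p = 0.00295), and its Normal libraries had 63, 81 and 44. NONRATT001330.2 had 29, 43 and 47 counts in Model and 2, 2 and 2 in the treated libraries, a 14.2-fold fall (log2 fold change -3.83 ± 0.39 SE, edgeR adjusted p = 0.00314). Its Normal libraries had 22, 39 and 25 counts, again beside Model. These 3 falls stayed called under every alternative in which the transcript was tested.

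Other falls had the same shape. NONRATT025640.2 had 58, 102 and 32 counts in Model and 7, 3 and 3 in the treated libraries, an 11.2-fold fall (edgeR adjusted p = 0.0294), and 66, 78 and 41 counts in Normal. Its Model libraries alone spanned 3.06-fold. It missed the threshold without Model 1, Model 2, treated 1, treated 2 or treated 3 (adjusted p = 0.0623 to 0.210). MSTRG.1865.2 had 33, 37 and 34 counts in Model and 0 in each treated library, lower at an edgeR adjusted p of 0.00606, with 29, 27 and 15 counts in Normal. With 3 counts over the 3 treated libraries as an assumed floor the fall is 26.8-fold. The exact 95% interval of the ratio of pooled levels uses the real counts, not that floor. It covers counting error only and starts at 21.4-fold. MSTRG.31003.1 had 61, 47 and 68 counts in Model and 5, 0 and 0 in the treated libraries (log2 fold change -4.78 ± 0.64 SE, edgeR adjusted p = 0.0332), and 83, 68 and 20 in Normal. It missed the threshold without Model 1, Model 3, treated 2 or treated 3 (adjusted p = 0.0683 to 0.129). Both of its treated libraries at 0 were the shallow ones, and the part of depth in this was not tested.

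Among the rises, NONRATT007757.2 had 19, 13 and 18 counts in Model and 604, 257 and 210 in the treated libraries, 13.3 ± 4.51 against 343.8 ± 57.8 CPM (SD, n = 3; log2 fold change 4.70 ± 0.27 SE, edgeR adjusted p = 0.000141). NONRATT005775.2 had 70, 56 and 54 counts in Model and 780, 338 and 306 in the treated libraries (log2 fold change 3.27 ± 0.23 SE, edgeR adjusted p = 0.00088). In Normal they had 358, 367 and 328 counts and 596, 687 and 612 counts, beside the treated libraries and apart from Model. NONRATT007758.2 ran the other way, with 129, 160 and 178 counts in Model and 3, 4 and 3 in the treated libraries (log2 fold change -5.06 ± 0.32 SE, edgeR adjusted p = 0.000141), and 3 counts in each Normal library. For these 3 transcripts it is thus the Model libraries that stand apart from the other 6, and Normal and the treated group share Model as their point of comparison. All 3 stayed called under every alternative in which they were tested.

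NONRATT008934.2 had 6, 6 and 5 counts in Model and 80, 12 and 28 in the treated libraries, an 8.09-fold rise (edgeR adjusted p = 0.0438). On the CPM scale the treated libraries spread from 16.8 to 51.8, and the Normal libraries, at 8.2 to 27.5 CPM, reached into their range. The call was lost without Model 1, Model 2, Model 3, treated 1 or treated 3 (adjusted p = 0.0866 to 0.230).

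**Figure D4:**
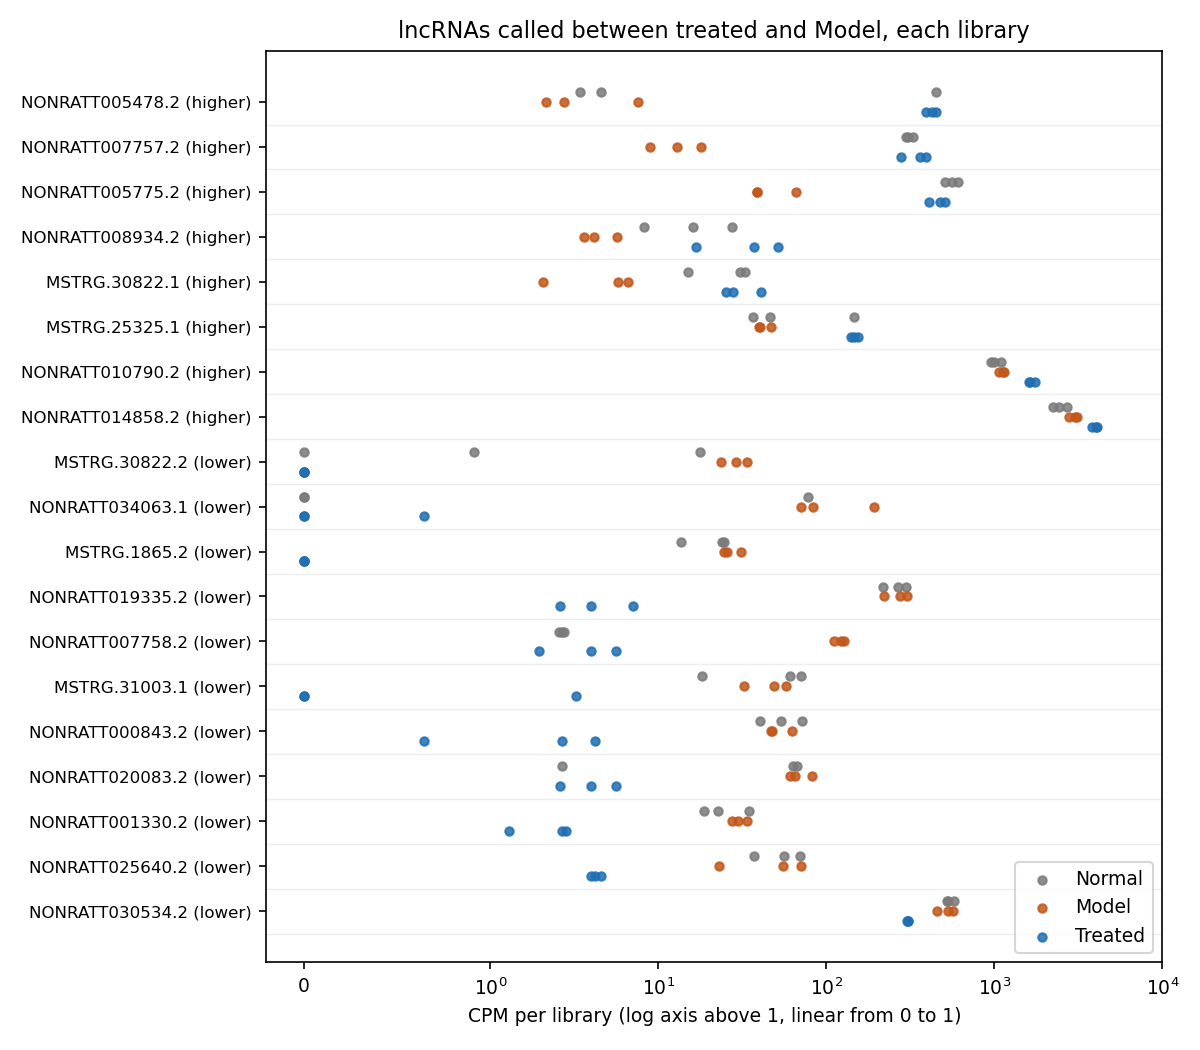
CPM of the 19 called lncRNAs in each library (x, log axis above 1, linear from 0 to 1), 1 row per transcript with Normal, Model and treated libraries offset within the row. In most rows treated and Model libraries form 2 tight clusters far apart, and in NONRATT005478.2, NONRATT020083.2, NONRATT034063.1 and MSTRG.30822.2 the Normal libraries are split between high and low values.

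The 3 called lncRNAs that differed less than 2-fold were abundant transcripts. NONRATT010790.2 had 1066, 1129 and 1136 CPM in Model and 1636, 1602 and 1745 CPM in the treated libraries, a 1.5-fold rise (log2 fold change 0.58 ± 0.07 SE, edgeR adjusted p = 0.0144), and 955.0, 1099 and 993.1 CPM in Normal. NONRATT014858.2 rose 1.34-fold, from 2969 ± 159 to 3977 ± 138 CPM (SD, n = 3; log2 fold change 0.42 ± 0.06 SE, edgeR adjusted p = 0.044). Its Normal libraries, at 2423, 2233 and 2687 CPM, were below every Model library. NONRATT030534.2 fell 1.69-fold, from 515.0 ± 57.4 to 304.2 ± 2.18 CPM (SD, n = 3; log2 fold change -0.76 ± 0.11 SE, edgeR adjusted p = 0.0332), with 540.7 ± 27.0 CPM in Normal. Libraries of a group lay close together here, at most 1.25-fold apart in Model and 1.09-fold in the treated group, so these differences are of the size and tightness seen among genes. Each call was lost without some of the libraries. NONRATT010790.2 missed the threshold without Model 3, treated 2 or treated 3 (adjusted p = 0.0618 to 0.0817). NONRATT014858.2 missed it without Model 1, Model 3, treated 1, treated 2 or treated 3 (0.0877 to 0.331), and NONRATT030534.2 without Model 1, Model 2, treated 1, treated 2 or treated 3 (0.0747 to 0.160).

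For some called transcripts the Normal libraries, which all carry the same label, held both the high and the low state. NONRATT005478.2 had 8, 4 and 3 counts in Model and 694, 301 and 295 in the treated libraries, the largest rise among the called lncRNAs (log2 fold change 6.69 ± 0.42 SE, edgeR adjusted p = 0.00295), but 4, 508 and 5 counts in Normal. Normal 2 was at the treated level and Normal 1 and 3 were at the Model level. NONRATT020083.2 had 87, 88 and 90 counts in Model and 4, 4 and 3 in the treated libraries (log2 fold change -4.15 ± 0.32 SE, edgeR adjusted p = 0.000578), and 75, 3 and 73 in Normal. NONRATT034063.1 had 88, 103 and 268 counts in Model and 1, 0 and 0 in the treated libraries, and 0, 0 and 85 in Normal (edgeR adjusted p = 0.0246). Its pooled level was 354.4-fold lower in the treated group, with an exact 95% interval of 63.3 to 14028 that covers counting error only. The 4th, MSTRG.30822.2, is described with its locus below. MSTRG.25325.1, which rose from 42, 58 and 65 to 239, 100 and 109 counts (log2 fold change 1.8 ± 0.16 SE, edgeR adjusted p = 0.00128), had 171, 41 and 51 counts in Normal, a span of 3.99-fold.

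Taking a span of at least 4-fold between the highest and the lowest library of a group, with 3 counts as the floor, 4 of the 19 called lncRNAs spanned that much within Normal, against 433 of 8173 tested (5.3%). Within Model the share over all tested lncRNAs was 5.73% and within the treated group 6.23%. For genes the shares were 0.321% (Normal), 0.376% (Model) and 0.329% (treated), and 0 of the 118 called genes spanned it. Such spans within a label were thus found in a minority of lncRNAs and in a smaller share of genes. Library totals were far lower for lncRNAs than for genes, and the part of depth in these shares was not tested. When all 9 libraries entered 1 fit, so that the Normal libraries took part in estimating the spread, NONRATT020083.2, MSTRG.25325.1, NONRATT005478.2, MSTRG.30822.2 and NONRATT034063.1 had adjusted p from 0.540 to 0.695. NONRATT005478.2 also missed the threshold without Model 2 (adjusted p = 0.0623), and NONRATT034063.1 without treated 1, treated 2 or treated 3 (0.485, 0.192 and 0.200).

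A fold of at least 4 was in fact more often left uncalled than called. Of the 56 lncRNAs with such a fold 41 did not pass the test, and the groups overlapped in 27 of them. Of the 41, 38 spanned at least 4-fold within Model or within the treated group. Over all 56, 23 spanned at least 4-fold within Normal (41.1%).

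Assembled transcripts carry their locus in their name, which allows each transcript to be set beside the others of its locus. MSTRG.30822 had 2 transcripts that moved against each other. MSTRG.30822.2 had 25, 49 and 40 counts in Model and 0 in each treated library, lower at an edgeR adjusted p of 0.00606. At the same assumed floor of 3 counts over the treated group the fall is 29.3-fold. The exact 95% interval of the ratio of pooled levels uses the real counts, not that floor. It covers counting error only and starts at 23.5-fold. MSTRG.30822.1 had 7, 3 and 8 counts in Model and 39, 29 and 21 in the treated libraries (log2 fold change 2.69 ± 0.42 SE, edgeR adjusted p = 0.0495). The sum of both was 33.5 ± 2.87 CPM in Model and 31.3 ± 8.36 CPM in the treated group (SD, n = 3; log2 fold change -0.13 ± 0.25 SE, edgeR adjusted p = 0.966). The transcript that took up the counts of the locus thus differed between the groups, while no difference in the locus total was detected. Normal 1 and Normal 3, with 36 counts each of MSTRG.30822.1 and 0 and 1 of MSTRG.30822.2, looked like the treated libraries, and Normal 2 held 17 and 20 counts. The call of MSTRG.30822.1 was lost when any 1 of the 6 libraries was left out (adjusted p = 0.0747 to 0.160).

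At MSTRG.1865 the transcript that disappeared was the smaller part of its locus. MSTRG.1865.1 had 63, 105 and 149 counts in Model and 117, 61 and 50 in the treated libraries (79.8 and 76.0 CPM), a log2 fold change of -0.07 ± 0.23 SE. With the loss of MSTRG.1865.2 the locus went from 106.7 ± 22.1 to 76.0 ± 9.85 CPM (SD, n = 3), which did not pass the test (log2 fold change -0.49 ± 0.19 SE, edgeR adjusted p = 0.797). At MSTRG.31003 the 3 transcripts together had 62, 54 and 69 counts in Model and 83, 0 and 0 in the treated libraries. In treated 1 MSTRG.31003.3 had 47 counts, MSTRG.31003.2 had 31 and MSTRG.31003.1 had 5, while in Model MSTRG.31003.1 held nearly all. So 1 treated library kept the locus and shifted between its transcripts, and the other 2 had no count at all. Normal 3 also held MSTRG.31003.3, with 30 counts beside 20 of MSTRG.31003.1, while Normal 1 and Normal 2 had 1 count each of MSTRG.31003.3. Without treated 1, MSTRG.31003 was the single locus called (edgeR adjusted p = 0.00147).

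Summed per locus, none of the 182 tested loci with 2 or more transcripts was called between the treated group and Model (0%; edgeR smallest adjusted p = 0.464). An unadjusted p below 0.05 was found for 14 of them (7.69%), and DESeq2 called 0. The shares over all lncRNA transcripts were 0.232% called and 5.79% at an unadjusted p below 0.05, so the count of 0 is near the background. At the transcript level, 101 assembled loci had 2 or more tested transcripts. In 5 of these 1 transcript was at least 2-fold higher and another at least 2-fold lower in the treated group.

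**Figure D5:**
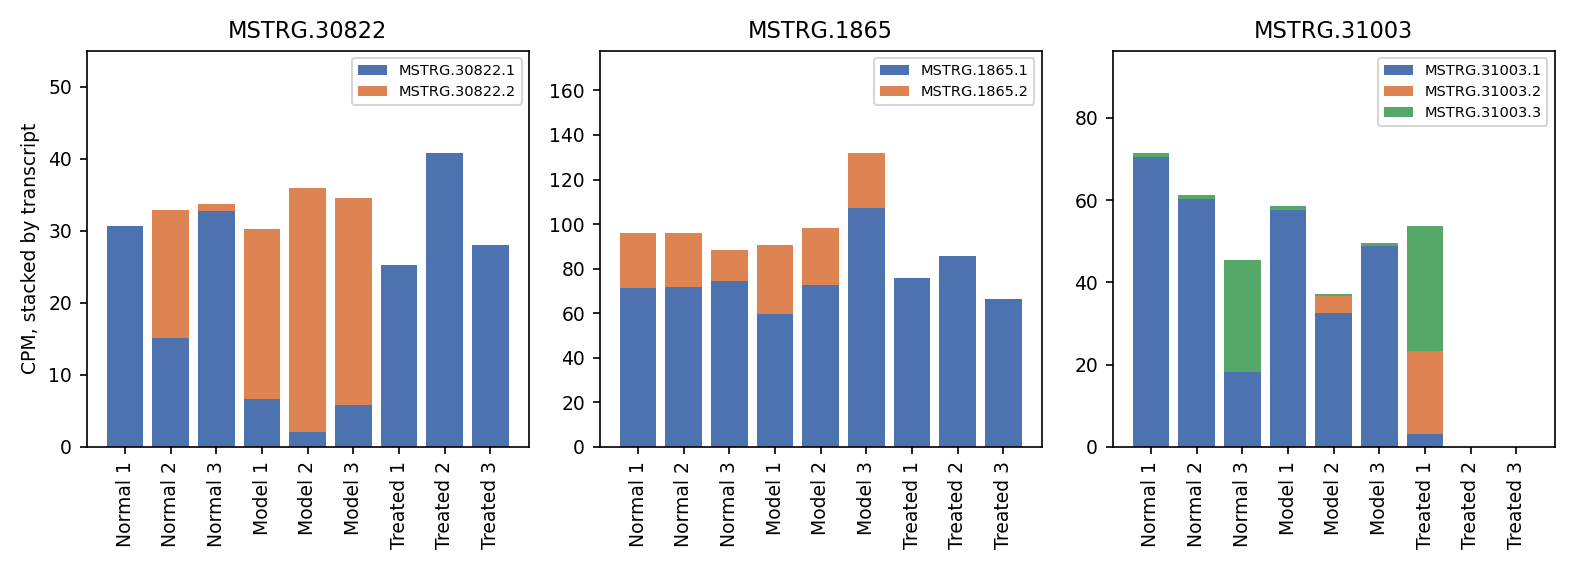
CPM (y, from 0) of the transcripts of 3 assembled loci, stacked, in each library (x). At MSTRG.30822 the stack keeps a similar height, 33.5 CPM in Model and 31.3 CPM in the treated group, while its makeup changes; at MSTRG.31003 treated 2 and treated 3 are at 0.

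NONCODE identifiers name no locus, so the entries with the next lower and next higher catalogue number were looked at instead, a choice made after the values were seen. Such an entry was in the table for 10 of the 14 called NONCODE transcripts, and 6 of these entries were tested. NONRATT007757.2 and NONRATT007758.2 are the one pair of neighbours in which both were called, in opposite directions. In Model the first was low and the second high, and in both other groups the reverse held. The neighbour of NONRATT014858.2, NONRATT014857.2, had a log2 fold change of 0.32 ± 0.10 SE in the same direction, which did not pass the test (edgeR adjusted p = 0.717). NONRATT000844.2, beside NONRATT000843.2, had 21, 0 and 13 counts in Model and 14, 6 and 6 in the treated libraries. NONRATT008933.2, beside NONRATT008934.2, had a log2 fold change of 0.14 ± 0.23 SE and NONRATT008935.2 one of -0.43 ± 0.59 SE. None of these 3 neighbours passed the test (edgeR adjusted p = 0.998, 0.973 and 0.963).

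The gene and lncRNA tables are not independent measurements throughout. Among lncRNAs with 100 or more counts over the 9 libraries, 138 of 7644 had exactly the same 9 counts as 1 gene of the gene table. Of these, 137 were Ensembl transcripts, out of 242 Ensembl transcripts at that depth, and 1 was a NONCODE transcript. Of the 138, 137 were tested in both tables, and edgeR called 0 of them between the treated group and Model in either table. With 0.232% of lncRNAs and 0.924% of genes called among all tested, a count of 0 among 137 is near the background.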

How the data were processed

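Strand-specific total RNA libraries of cultured endothelial cells were sequenced, per the labels' protocols. The authors deposited whole-number read counts and FPKM values for genes and for lncRNA transcripts, per the file headers. The submitters' processing notes list mRatBN7.2 and CASAVA 1.8. The counting program, aligner, annotation and strand setting were not given in the sources used here, and overlapping and antisense features are therefore uncertain. Counts of the 6 libraries entered edgeR 4.0.16 in R 4.3.3 (TMM factors, robust estimateDisp and glmQLFit, glmQLFTest, group as the only term), with Benjamini-Hochberg adjustment within each table. CPM values use TMM factors over all 9 libraries, and each standard error is the log2 fold change divided by the square root of F. The deposited FPKM values served only to recover gene lengths. The pipeline was first tested on simulated data.

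Named by rule were the 2 genes of smallest p in each direction, since no symbols could be had, and every called lncRNA with the other transcripts of its assembled locus. The 33 gene lists drawn up for the study could not be scored, because 0 of 32883 identifiers matched the reference table of 47357 genes (GRCr8). Members and lists were chosen with earlier results of these data known. Alternatives were DESeq2 1.42.0, upper-quartile factors, other count filters, all 9 libraries in 1 fit, a replicate block, no robust settings, thinning to equal depth, a 1.5-fold minimum and leaving out each library; 2 restrictions on the features tested were added after the data were seen.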

Additional observations from a re-analysis of the deposited data

How the results depend on the processing

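No called feature named in the text reversed direction in any alternative fit in which it was tested, and 3 of the 4 genes and 6 of the 19 lncRNAs kept their call in all of these fits. A minimum fold of 1.5 is not counted among these fits, and it drops 2 of the 4 genes (1.44-fold and 1.45-fold). All these fits reuse the libraries in which the named features were called, so a kept direction is not independent support. The 118 gene calls became 78 without robust settings and 31 with a minimum fold of 1.5, and ranged from 8 to 995 when 1 library was left out. Stayed within 1.5 times of 118 were DESeq2 (174), no count filter (172), all 9 libraries (121), filterByExpr (119), genes with a Normal span under 4-fold (116), upper-quartile factors (109), the stricter filter of 50 counts (109) and equal depth (96).

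The 19 lncRNA calls became 11 with all 9 libraries in 1 fit, 12 without robust settings and 10 with 50 counts required in 3 libraries, which tests fewer lncRNAs. With 10 counts required in all 6 libraries there were 8 calls, 6 of them among the 19; that filter removes the other 13 because of their low counts in 1 group. With 1 library left out they ranged from 16 to 23. The cause of the other changes was not tested. Loci called ranged from 0 to 1 with 1 library left out, the 1 appearing without treated 1.

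Replicate numbers are shared between the groups, but whether they pair the libraries is not stated. Deviations of same-numbered libraries from their group means correlated across genes at 0.13, 0.14 and 0.02, and across lncRNAs at -0.01, -0.02 and 0.00. Differently numbered libraries correlated across genes at -0.19 to 0.11. With 3 libraries in each group these values cannot decide whether the libraries are paired. With the replicate block 84 genes, 12 lncRNAs and 0 loci were called, 70 of the genes and 11 of the lncRNAs among the calls of the fit without it. MSTRG.30822.2 and MSTRG.1865.2, at 0 in every treated library, then had adjusted p of 0.102 and 0.106. Across genes Model 1 and Model 2 correlated best with the treated library of their own number, and Model 3 with treated 1 (0.11). Depth limits the lncRNAs most: 3 counts are 4.21 CPM in treated 2, so a transcript below that level there cannot be told from an absent one.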
